A study of Mus musculus with 4 samples.

Results

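The cytochrome P450 genes were described across 4 RNA sequencing libraries of colon from germ-free mice. The members were all rows of the deposited gene table whose symbol is Cyp followed by a family number, subfamily letters and a gene number. Of the 24016 rows, 94 met this rule. Of these 94 genes, 40 were detected, meaning a mean of at least 0.5 CPM (read counts scaled to an equal library size, with libraries then put on 1 scale by the TMM method) over the 4 libraries. The other 54 were below this limit, and 23 of them had 0 counts in every library. The rule leaves out P450 genes with other kinds of symbol, such as Cyp51, Tbxas1 and Ptgis.

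Colon was taken from C57BL/6 mice aged 7 weeks that were germ-free when bought, and pieces of 4 cm were frozen. One library came from mice given Lactobacillus rhamnosus GG (LGG, a probiotic bacterium) by oral gavage, one from mice given Escherichia coli, and one from mice given the vehicle PBS, each sampled 4 h after gavage. The stated bacterial dose was 2000000000 colony-forming units per mL. The last library came from untreated mice. The labels give 4 mice for each gavaged group but neither the number of untreated mice nor whether RNA was pooled, and do not name the strain of E. coli. Each group had 1 library, so no difference has a replicate check and no p-value can be given. Intervals are exact 95% binomial intervals and cover counting error only; PCR copies could not be told from separate molecules here.

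Library totals were 29899371 counts for LGG, 29368008 for E. coli, 16289580.0 for PBS and 27220697 for the untreated library, so the PBS library is the least precise. A count of 0 allows up to 3 counts, which is 0.187 CPM in the PBS library and between 0.102 and 0.105 CPM in the others. All 10 colon epithelium markers were detected, and their summed level was between 17121 and 19564 CPM in the 4 libraries. Muc2 was the largest part of it, at 9720 CPM in LGG, 8174 in E. coli, 8281 in PBS and 10512 in untreated. Slc26a3 had 1543, 1673, 1575 and 859 CPM in the same order of libraries, and Car4 had 1400, 1564, 1535 and 787. In each gavaged library 7 of the 10 markers were above untreated. In E. coli 1 of the 10 was past the size rule defined below against untreated, where 2.96% of all genes were. Hepatocytes are the richest source of P450 mRNA in the body. The 8 hepatocyte markers summed to 66.6 CPM in the LGG library, 81.5 in E. coli, 72.2 in PBS and 56.1 in untreated. Among them Fgb was at 0 counts in all libraries and Alb, which encodes albumin, had 1.37 CPM in the LGG library, 1.24 in E. coli, 0.935 in PBS and 0.876 in untreated. Tat and Ttr made up most of the sum. Tat had 40.4 CPM in LGG, 39.5 in E. coli, 38.9 in PBS and 31.0 in untreated. Ttr had 16.5, 27.8, 21.7 and 13.1 CPM in the same order of libraries.

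Cytochrome P450 enzymes are haem proteins that insert an oxygen atom into a substrate, with electrons passed on by a partner such as P450 oxidoreductase in the endoplasmic reticulum or ferredoxin in mitochondria. Families with low numbers mostly act on drugs, plant compounds, fatty acids and arachidonic acid, while many families with higher numbers each act on a sterol, bile acid, vitamin D or retinoic acid. In the gut they lie mainly in the epithelium, where they meet food compounds and bacterial products before these reach the liver. Several are switched on by the xenobiotic receptors AHR, PXR (Nr1i2) and CAR (Nr1i3).

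The P450 messages together made up a small and similar part of every library. Their summed level was 2302 CPM in the LGG library, 2060 in E. coli, 2018 in PBS and 2150 in untreated. Without TMM scaling, the P450 counts were 0.225%, 0.204%, 0.199% and 0.226% of the library totals, in that order. Between genes, levels were compared as CPM per kilobase of listed transcript length. On this scale the highest mean was that of Cyp4f14 (186), before Cyp2d34 (147), Cyp2c55 (122), Cyp3a13 (86.8), Cyp2c65 (66.8) and Cyp2s1 (55.0). Summed per subfamily on the same scale, Cyp2d stood at 307 in the LGG library, 340.3 in E. coli, 287 in PBS and 234 in untreated. Cyp4f stood at 319 in LGG, 282 in E. coli, 283 in PBS and 269 in untreated. Cyp2c had another order of libraries, with 252 in LGG, 160.0 in E. coli, 187 in PBS and 295 in untreated.

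**Figure D1:**
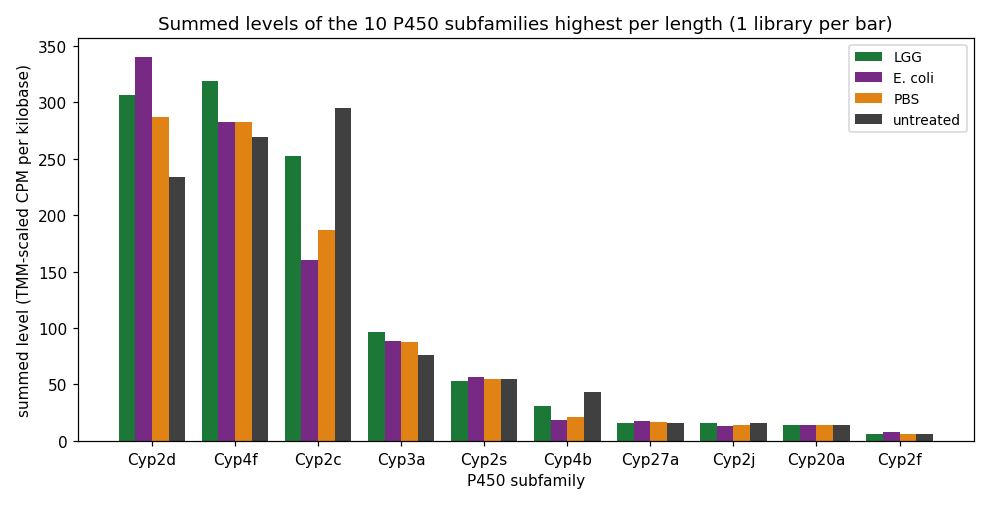
Summed level of the 10 P450 subfamilies highest per length (vertical axis, TMM-scaled CPM per kilobase; 1 bar per library, in the order LGG, E. coli, PBS, untreated). Cyp2d is lowest in the untreated library (234) and highest in E. coli (340.3), while Cyp2c is highest in untreated (295) and lowest in E. coli (160.0).

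A gene was counted as past the size rule when it differed by at least 2-fold between a pair of libraries, its counting interval left out 0 on the log2 scale and its mean was at least 0.5 CPM. Against the untreated library, 3 of the 40 detected P450 genes were past it in the LGG library (1 higher and 2 lower), against 1.56% of all 15286 genes tested. In the E. coli library 7 were (1 higher and 6 lower), against 2.96% of all genes. In the PBS library 5 were (1 higher and 4 lower), against 1.89%. These comparisons share the untreated library. Over any of the 6 pairs of libraries, 8 of the 40 (20.0%) were past the rule, against 4.51% of all genes tested. Of these 8, Cyp3a11 and Cyp2c66 reached the detection limit only through the untreated library, so their place among the genes that differ from it was partly fixed by that limit. At a looser rule of 1.5-fold, 9 of the 40 were past it for LGG (5.65% of all genes), 14 for E. coli (8.74%) and 12 for PBS (6.14%), each against untreated.

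Against PBS, no detected P450 gene was past the rule in the LGG library, where 0.458% of all genes were, and none was in the E. coli library, where 0.582% were. The median log2 ratio of the 40 genes was 0.13 for LGG against PBS, with 27 positive, and 0.06 for E. coli against PBS, with 25 positive. Over all genes tested these medians were -0.00 and 0.00, with 49.24% and 50.71% positive. Between the bacteria, LGG against E. coli, 2 P450 genes were past the rule, against 0.635% of all genes: Cyp3a11 was higher and Cyp2c44 lower. With a mean of at least 1 CPM asked for, 0 were past it. Against untreated, the median log2 ratio of the 40 genes was 0.04 for LGG, 0.04 for E. coli and -0.04 for PBS, where the median of all genes was -0.01, 0.00 and -0.00. With library totals in place of TMM these medians of the 40 genes were -0.06, -0.04 and -0.13, so the first 2 changed sign.

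**Figure D2:**
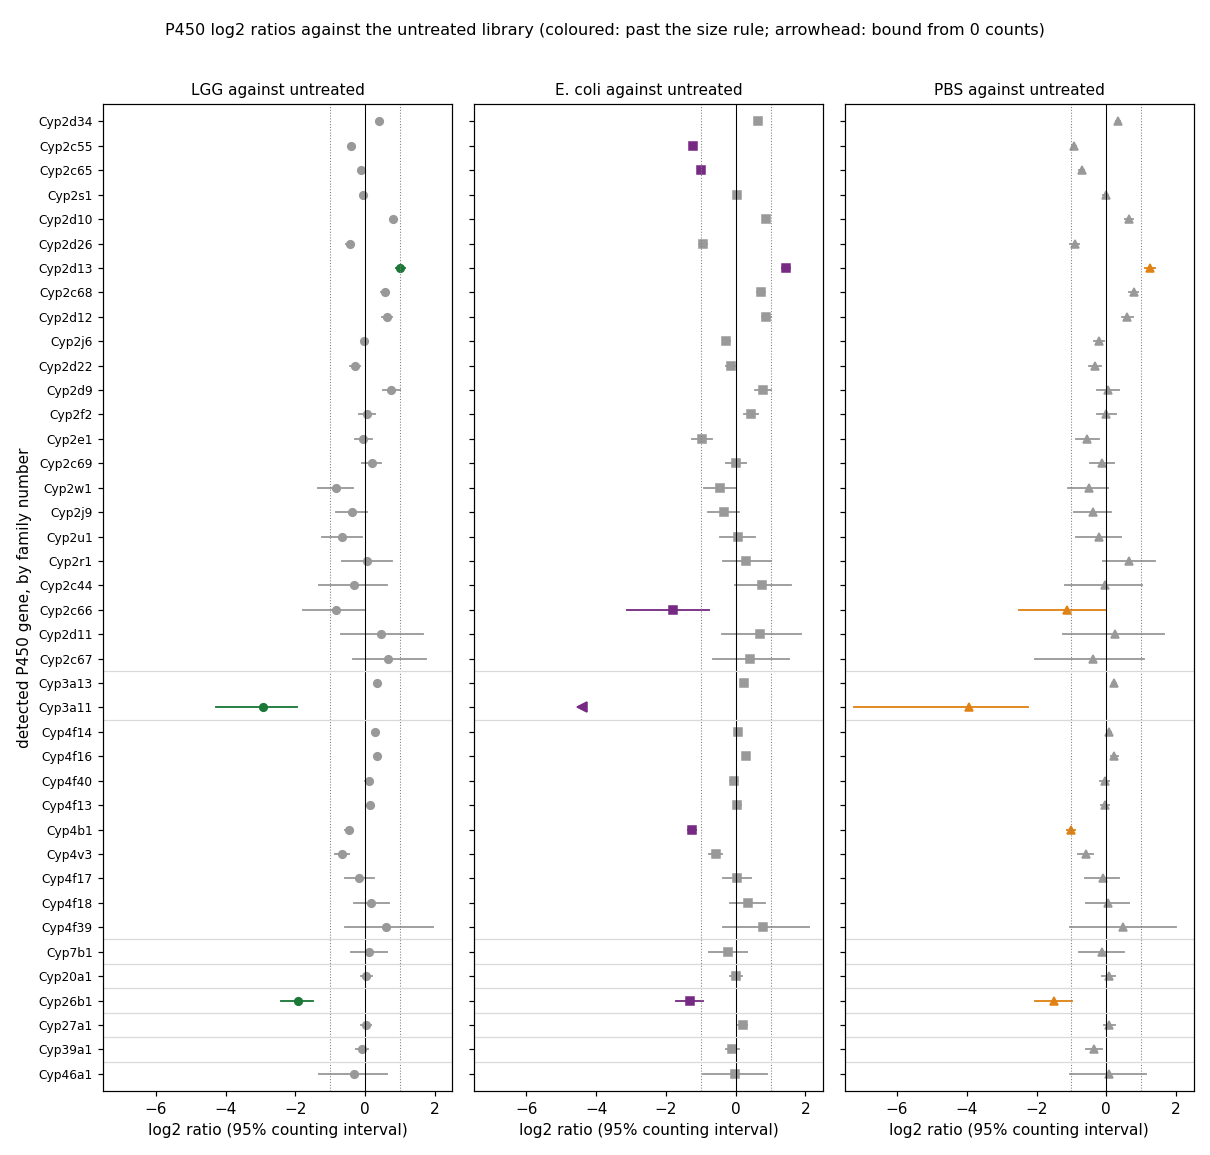
Log2 ratio of each detected P450 gene in the LGG, E. coli and PBS libraries against the untreated library, with exact 95% counting intervals (1 library per group). Cyp2d13 lies above 1 in all 3 panels, while Cyp26b1 and Cyp3a11 lie below -1 in all 3.

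The Cyp2c subfamily holds 15 members, of which 7 were detected. Its enzymes oxidise drugs and arachidonic acid. Cyp2c55, a P450 of the gut that converts arachidonic acid to 19-HETE, was the highest member per length, and it lies at chr19:39081509-39117177 of mm9, on the plus strand. It had 269 CPM in the LGG library, 154 in E. coli, 187 in PBS and 358 in untreated. The untreated library was highest and the E. coli library lowest. The log2 ratio against untreated was -0.41 for LGG (-0.46 to -0.37), -1.21 for E. coli (-1.26 to -1.16) and -0.94 for PBS (-0.997 to -0.879), so of these only E. coli was past the size rule.

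Cyp2c65, the next gene along the chromosome (chr19:39135496-39168438, plus strand), had 157 CPM in the LGG library, 84.6 in E. coli, 104 in PBS and 170.2 in untreated. Its log2 ratio of LGG to PBS was 0.59 (0.51 to 0.67). The LGG library was close to untreated here, while E. coli was 1.01 lower on the log2 scale (-1.08 to -0.94 in the ratio to untreated). Cyp2c66, which follows it (chr19:39188388-39261246, plus strand), was scarce, at 0.615 CPM in LGG, 0.310 in E. coli, 0.499 in PBS and 1.12 in untreated. Its log2 ratio to untreated was -1.79 in E. coli (-3.11 to -0.76, 9 against 32 counts) and -1.14 in PBS (-2.50 to -0.02, 8 against 32 counts; -0.92 and not past the rule with a prior of 5 counts). These 3 neighbours had the same order of libraries, though each step between neighbouring libraries was within counting error for Cyp2c66. Of all 50-base words in the longest Cyp2c66 transcript of GENCODE M21, 20.44% also occur in another gene's transcript, mostly that of Cyp2c65, so the counts of the scarcer gene are uncertain.

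Cyp2c68 lies in the same cluster on the other strand (chr19:39763326-39815591, minus strand) and had another pattern, with 51.1 CPM in the LGG library, 56.9 in E. coli, 59.4 in PBS and 34.3 in untreated. All gavaged libraries were above untreated, by log2 ratios of 0.57, 0.73 and 0.79 for LGG, E. coli and PBS, none of them past the rule. Of its 50-base words 43.28% are shared with other transcripts, mainly Cyp2c40, so its counts are uncertain. Cyp2c44, an arachidonic acid epoxygenase, had 0.615 CPM in LGG, 1.31 in E. coli, 0.748 in PBS and 0.771 in untreated. Its log2 ratio of LGG to E. coli was -1.06 (-1.99 to -0.24), from 18 against 38 counts, and -0.89 with a prior of 5 counts, which is not past the rule. Cyp2c69 was between 6.67 and 8.30 CPM and Cyp2c67 between 0.374 and 0.786 CPM. Their counts are uncertain too, since 54.79% and 52.76% of their 50-base words are shared with other transcripts.

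The promoters of Cyp2c55, Cyp2c65 and Cyp2c68, genes of the same cluster that differed in opposite ways, are printed next. The sequences are as RefSeq gives them on GRCm38.p6, from 250 bases before to 50 bases after the start and 5′ to 3′ on the gene's strand. They lie at chr19:39006769-39007068 (plus strand), chr19:39060756-39061055 (plus strand) and chr19:39741052-39741351 (minus strand). Capitals mark the letters TATAAA (as in a TATA box), GCGTG (the core of the AHR site) and AGGTCA (1 site of a nuclear receptor). Each was searched on both strands and at any place in the window, so a marked stretch need not be a working site.
Cyp2c55: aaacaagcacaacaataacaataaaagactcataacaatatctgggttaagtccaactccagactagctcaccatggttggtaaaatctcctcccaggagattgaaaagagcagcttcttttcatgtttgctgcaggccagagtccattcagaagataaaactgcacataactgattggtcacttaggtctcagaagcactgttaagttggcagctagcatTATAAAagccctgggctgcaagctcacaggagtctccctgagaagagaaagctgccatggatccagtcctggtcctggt
Cyp2c65: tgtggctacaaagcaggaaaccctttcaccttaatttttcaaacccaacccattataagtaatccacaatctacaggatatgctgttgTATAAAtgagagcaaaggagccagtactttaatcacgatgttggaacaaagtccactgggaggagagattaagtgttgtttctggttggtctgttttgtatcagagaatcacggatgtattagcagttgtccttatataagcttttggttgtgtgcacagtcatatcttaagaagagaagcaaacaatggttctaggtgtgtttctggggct
Cyp2c68: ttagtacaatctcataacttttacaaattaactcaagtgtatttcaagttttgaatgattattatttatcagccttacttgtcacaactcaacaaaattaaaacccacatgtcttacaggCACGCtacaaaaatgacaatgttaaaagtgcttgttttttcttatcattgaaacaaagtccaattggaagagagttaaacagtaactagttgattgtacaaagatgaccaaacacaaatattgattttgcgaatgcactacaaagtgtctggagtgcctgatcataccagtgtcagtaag
Of these 3 genes, both that were highest in the untreated library hold TATAAA in this window. Cyp2c68, lowest in untreated, has no TATAAA here and holds 1 GCGTG on the reverse strand, which reads as CACGC here. Of the other detected genes with TATAAA, Cyp26b1, Cyp2c66, Cyp2d26, Cyp2e1 and Cyp3a11 were highest in untreated. Cyp2c67 and Cyp2c69 were highest in LGG, and Cyp2d9, Cyp2d10 and Cyp2d11 were lowest in untreated. Cyp4b1, Cyp4v3 and Cyp2w1 were also highest in untreated but hold no TATAAA in this window. A link between these letters and the levels was not tested. The 3 promoters are not close copies: in global alignments 54.4% of positions are identical between Cyp2c55 and Cyp2c65, 46.9% between Cyp2c55 and Cyp2c68, and 49.1% between Cyp2c65 and Cyp2c68. Of the 40 detected genes, 31 have a promoter in the RefSeq table. TATAAA occurs in 12 of these 31, against 13.57% of the table's 32544 promoters. GCGTG occurs in 10 of 31, against 32.58%, and AGGTCA in 2 of 31, against 16.25%.

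The Cyp2d subfamily, which in humans is known for the drug-metabolising CYP2D6, had 8 of 9 members detected. Cyp2d34, its highest member per length (chr15:82446395-82451337, minus strand), had 244 CPM in the LGG library, 284 in E. coli, 233 in PBS and 184 in untreated. Cyp2d13 (chr15:82467180-82472475, minus strand), which the table lists as a pseudogene, had 49.3 CPM in LGG, 66.4 in E. coli, 57.8 in PBS and 24.4 in untreated. It was the only detected P450 gene past the rule in the higher direction against untreated, with a log2 ratio of 1.01 in LGG (0.88 to 1.15), 1.44 in E. coli (1.32 to 1.57) and 1.24 in PBS (1.10 to 1.39). With library totals in place of TMM the LGG ratio was 0.915 and no longer past the rule.

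Cyp2d10 and Cyp2d12 were also lowest in the untreated library. Cyp2d10 had 82.8 CPM in LGG, 86.5 in E. coli, 74.2 in PBS and 47.2 in untreated, and Cyp2d12 had 38.1 in LGG, 45.6 in E. coli, 37.7 in PBS and 24.7 in untreated. Cyp2d9, the testosterone 16-alpha-hydroxylase of male mouse liver, was higher in both libraries from mice given bacteria, at 14.1 CPM in LGG and 14.4 in E. coli, against 8.66 in PBS and 8.34 in untreated. Its log2 ratio to PBS was 0.70 for LGG (0.42 to 0.99) and 0.73 for E. coli (0.45 to 1.02). At the 1.5-fold rule, 2 detected P450 genes, Cyp2d9 and Cyp2c65, were past it for LGG against PBS, where 1.68% of all genes were. Only Cyp2d9 was past it for E. coli against PBS, where 1.58% of all genes were.

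Cyp2d26 (chr15:82620537-82624675, minus strand) was highest in the untreated library, unlike most of its relatives, with 53.7 CPM in the LGG library, 37.8 in E. coli, 38.8 in PBS and 72.6 in untreated. The log2 ratio to untreated was -0.44 in LGG, -0.94 in E. coli and -0.91 in PBS, within 2-fold in each. Cyp2d22 was between 23.7 and 29.6 CPM, and Cyp2d11 between 0.420 and 0.689. Of the 50-base words, 40.53% in Cyp2d10, 37.18% in Cyp2d11, 29.04% in Cyp2d9, 10.54% in Cyp2d26 and 5.14% in Cyp2d34 are shared with transcripts of other genes. Cyp2d10, Cyp2d11 and Cyp2d9 are thus the less certain of these counts. Cyp2d13 was not matched to that transcript set.

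The promoters of Cyp2d26 (chr15:82794196-82794495, minus strand) and Cyp2d10 (chr15:82407145-82407444, minus strand) are shown because these relatives differed in opposite ways, with capitals as before.
Cyp2d26: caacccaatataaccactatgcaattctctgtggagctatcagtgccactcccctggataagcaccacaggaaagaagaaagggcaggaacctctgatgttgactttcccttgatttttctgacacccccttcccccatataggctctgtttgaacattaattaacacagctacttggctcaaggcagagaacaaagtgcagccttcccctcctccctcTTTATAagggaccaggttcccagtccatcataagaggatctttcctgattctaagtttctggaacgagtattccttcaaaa
Cyp2d10: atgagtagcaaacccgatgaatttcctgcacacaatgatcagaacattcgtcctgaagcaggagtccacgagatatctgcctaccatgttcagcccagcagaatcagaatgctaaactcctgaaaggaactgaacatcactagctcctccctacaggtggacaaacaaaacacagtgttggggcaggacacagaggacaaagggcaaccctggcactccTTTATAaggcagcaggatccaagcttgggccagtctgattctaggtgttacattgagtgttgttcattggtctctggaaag
Each holds TATAAA on the reverse strand, read here as TTTATA, and neither holds GCGTG or AGGTCA. The alignment of these promoters had 51.8% identical positions. Cyp2d26 was highest in the untreated library and Cyp2d10 lowest there.

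**Figure D3:**
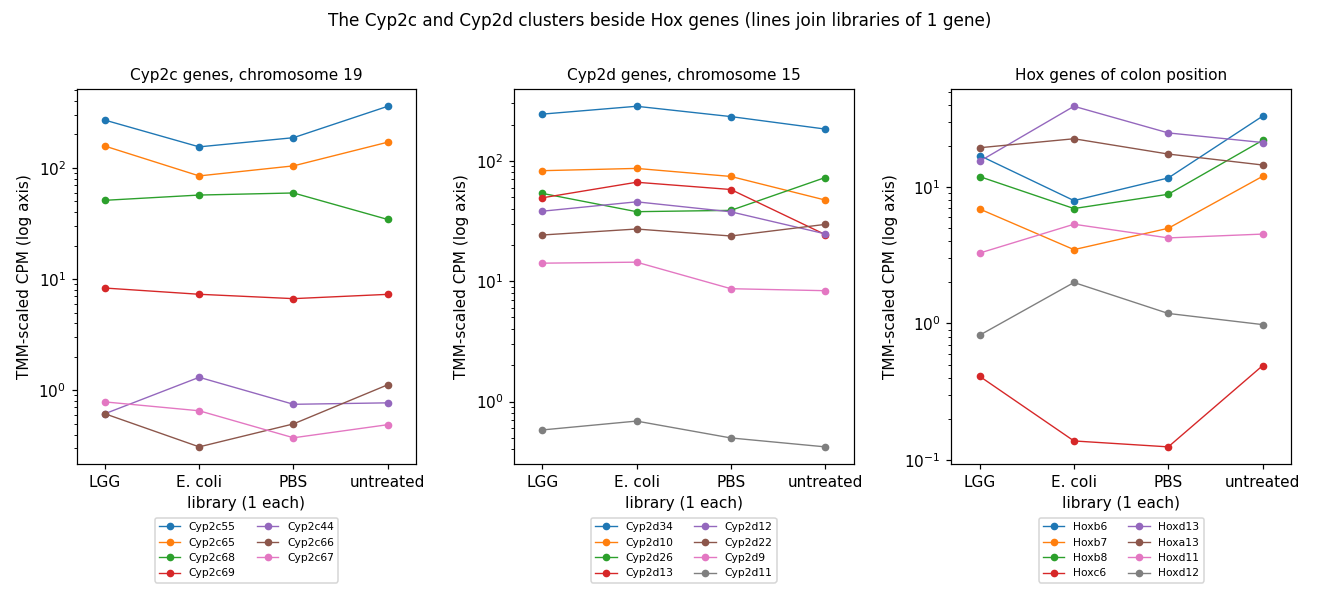
Level in each library (vertical axis, TMM-scaled CPM, log axis; 1 point per library, lines join the points of 1 gene) of the detected Cyp2c genes, the detected Cyp2d genes and Hox genes that mark position along the colon. Cyp2c55, Cyp2c65, Cyp2d26, Hoxb6, Hoxb7 and Hoxb8 are highest in untreated and lowest in E. coli, while Cyp2c68, Cyp2d10, Cyp2d12, Cyp2d13 and Cyp2d34 are lowest in untreated.

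The rest of family 2 spanned a wide range of levels. Cyp2s1, a P450 of epithelia outside the liver, was nearly equal in all libraries, at 139 CPM in LGG, 148 in E. coli, 143 in PBS and 144 in untreated. Cyp2j6, which is found in mouse intestine, had 50.7 CPM in LGG, 42.7 in E. coli, 44.4 in PBS and 51.3 in untreated. Cyp2e1, which oxidises ethanol and small solvents, had 9.81 CPM in LGG, 5.20 in E. coli, 6.98 in PBS and 10.2 in untreated. LGG and untreated were thus the high libraries for Cyp2e1, and its log2 ratio of LGG to E. coli was 0.91 (0.63 to 1.21). Cyp2f2, known from naphthalene toxicity in mouse lung, was between 11.03 CPM in PBS and 14.98 in E. coli.

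The scarcer family 2 genes outside Cyp2c and Cyp2d stayed below 4 CPM. Cyp2j9 was between 2.68 and 3.50 CPM, and Cyp2w1, whose human counterpart is known from colorectal tumours, was between 1.88 in LGG and 3.36 in untreated. Cyp2u1, a fatty acid hydroxylase, was between 1.504 CPM in LGG and 2.48 in E. coli. Cyp2r1, a vitamin D 25-hydroxylase, was between 1.19 in untreated and 1.87 in PBS. The 26 undetected members of family 2 had 232 counts in all 4 libraries together.

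In family 3 Cyp3a13 and Cyp3a11 were detected, of 7 members. Cyp3a13 (chr5:138334161-138362847, minus strand) had 282 CPM in the LGG library, 261 in E. coli, 257 in PBS and 220.4 in untreated. Cyp3a11, the main PXR-induced drug-metabolising P450 of mouse liver and small intestine (chr5:146666183-146691430, minus strand), was scarce, with 0.273 CPM in LGG, 0 in E. coli, 0.125 in PBS and 2.21 in untreated. These levels came from 8, 0, 2 and 63 counts. Most of its counts thus came from the untreated library. Its log2 ratio to untreated was -2.93 in LGG (-4.29 to -1.95) and -3.95 in PBS (-7.22 to -2.23). With the 0 in E. coli set to 3 counts and the other counts taken as exact, E. coli was 21.4-fold below untreated. On the same terms LGG was 2.65-fold above E. coli. The counting interval of the log2 ratio ended at -4.08 for E. coli to untreated and began at 0.76 for LGG to E. coli.

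The Cyp3a11 promoter (chr5:145879805-145880104, minus strand, GRCm38.p6) is shown because this gene had the largest fold difference of the detected P450 genes, with capitals as before.
Cyp3a11: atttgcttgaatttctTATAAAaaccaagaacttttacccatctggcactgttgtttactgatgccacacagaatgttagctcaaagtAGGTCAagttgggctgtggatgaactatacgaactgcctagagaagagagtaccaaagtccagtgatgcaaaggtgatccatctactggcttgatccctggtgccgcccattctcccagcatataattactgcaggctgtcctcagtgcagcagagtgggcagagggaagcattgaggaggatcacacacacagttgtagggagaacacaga
It holds 1 TATAAA and 1 AGGTCA, and Cyp2f2 was the only other detected P450 gene in the table with AGGTCA. No 50-base word of the Cyp3a11 transcript is shared with another gene. The 5 undetected genes of family 3 had 14.5 deposited counts together, of which 9.5 were Cyp3a25 in the untreated library (the table gives counts in steps of 0.5).

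Family 4 enzymes hydroxylate the far end of fatty acids and of eicosanoids such as leukotriene B4, and 9 of 17 members were detected. Cyp4f14 (chr17:33042015-33054287, minus strand), known in the mouse for the hydroxylation of vitamin E, was the highest P450 gene per length. It had 458 CPM in the LGG library, 393 in E. coli, 402 in PBS and 379 in untreated. Cyp4f16 had 84.3 CPM in LGG, 80.8 in E. coli, 77.5 in PBS and 66.1 in untreated. Both were highest in LGG and lowest in untreated, but by log2 ratios of LGG to untreated of 0.27 and 0.35. Of the 50-base words of Cyp4f16, 26.54% are shared with other transcripts, mostly that of Cyp4f37, so its counts are less certain. Cyp4f40 was between 47.2 and 52.7 CPM and Cyp4f13 between 50.1 and 56.4, so both were nearly flat.

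Cyp4b1, which acts on fatty acids and turns some plant toxins into reactive products (chr4:115297333-115320310, minus strand), had 58.1 CPM in the LGG library, 33.8 in E. coli, 40.01 in PBS and 80.6 in untreated. The log2 ratio to untreated was -1.25 in E. coli (-1.36 to -1.15) and -1.01 in PBS (-1.14 to -0.88), while that of LGG to E. coli was 0.78 (0.67 to 0.90). Cyp4v3 was also highest in untreated, with 13.3 CPM in LGG, 14.2 in E. coli, 14.0 in PBS and 21.1 in untreated. Cyp4f17 was between 3.35 and 3.86 CPM, and Cyp4f18, which inactivates leukotriene B4 in mouse neutrophils, between 2.17 and 2.75. Cyp4f39 was the member just inside the detection limit, with a mean of 0.504 CPM. Just outside it were Cyp1b1, Cyp2t4 and Cyp11a1, with means of 0.489, 0.447 and 0.436 CPM.

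**Figure D4:**
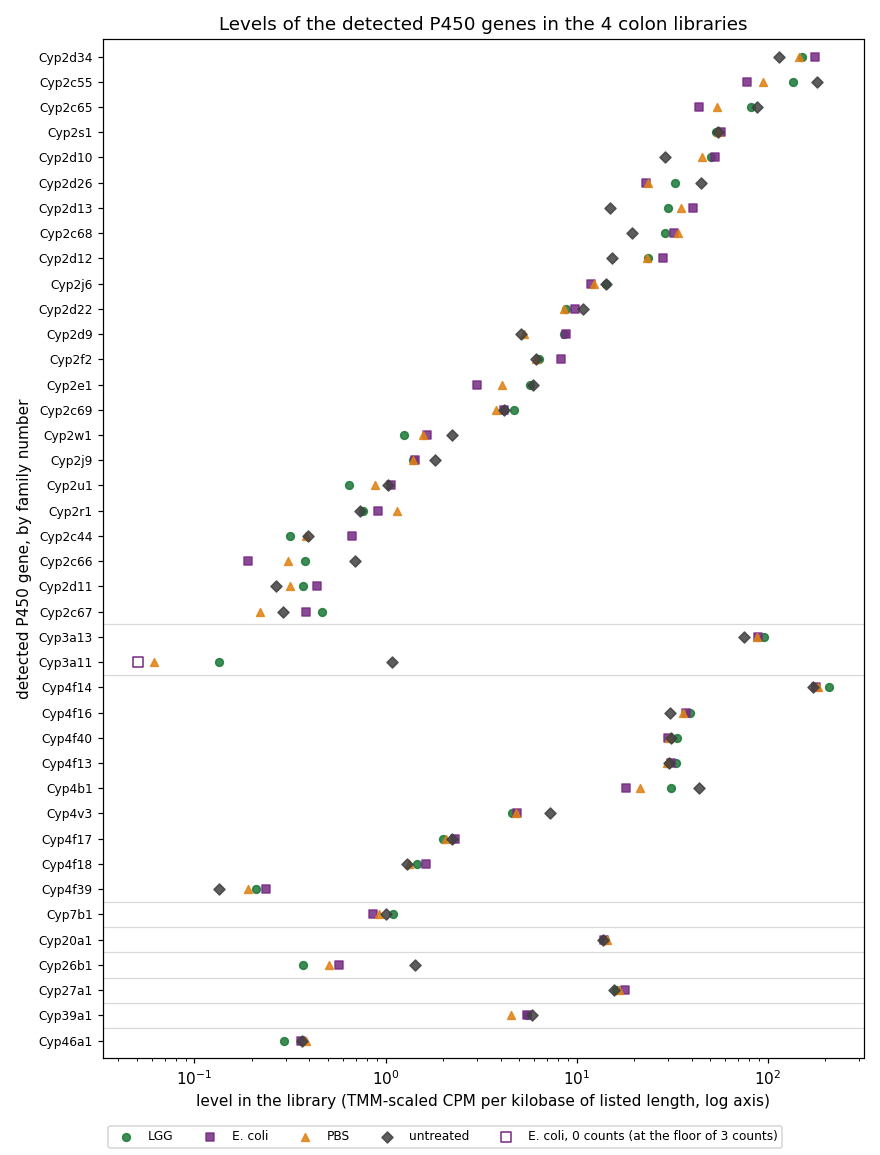
Level of each of the 40 detected P450 genes in the LGG, E. coli, PBS and untreated libraries (horizontal axis, TMM-scaled CPM per kilobase of listed length, log axis; 1 point per library, grouped by family number). The open square is Cyp3a11 in E. coli, with 0 counts, drawn at the floor of 3 counts.

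The remaining families each act on few substrates. Cyp26b1 (chr6:84521408-84543902, minus strand), which degrades retinoic acid, had 1.74 CPM in the LGG library, 2.69 in E. coli, 2.37 in PBS and 6.69 in untreated. All 3 gavaged libraries were below untreated, with log2 ratios of -1.93 in LGG (-2.42 to -1.49), -1.31 in E. coli (-1.72 to -0.93) and -1.49 in PBS (-2.04 to -0.99). Its lowest library was LGG, unlike that of Cyp2c55 and Cyp2c65. Cyp26a1 and Cyp26c1, the other retinoic acid hydroxylases, had 9.5 deposited counts together.

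None of the sterol hydroxylases was past the size rule in any pair. Cyp27a1, the mitochondrial sterol 27-hydroxylase, had 30.1 CPM in LGG, 33.8 in E. coli, 31.2 in PBS and 29.4 in untreated. Cyp39a1 and Cyp7b1, which both 7-alpha-hydroxylate oxysterols, had 17.0 and 2.36 CPM in LGG, 16.9 and 1.86 in E. coli, 14.0 and 1.99 in PBS, and 18.0 and 2.17 in untreated. Cyp46a1, the cholesterol 24-hydroxylase best known in brain, was near the detection limit, at 0.615 in LGG, 0.757 in E. coli, 0.810 in PBS and 0.771 in untreated. Cyp20a1, whose substrate is not well known, had 20.9 in LGG, 20.7 in E. coli, 21.3 in PBS and 20.4 in untreated, all alike. Of the 40 genes, 10 (25.0%) had a level in the highest library less than 25% above that in the lowest, against 59.58% of all genes tested. These shares take no account of counting error, which is large for scarce genes such as Cyp46a1 (between 13 and 22 counts). Cyp3a11, with 0 counts in E. coli, was placed outside this group. Whether P450 genes varied more than other genes of like level was not tested.

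In several families no member was detected. Family 1, the classical AHR targets, had 84 deposited counts together. Cyp1a1 had 12.5 counts in the LGG library, 6.5 in E. coli, 3.5 in PBS and 14.5 in untreated, and Cyp1a2 had none. The steroid-making families were also near 0: family 11 had 49 counts, all of Cyp11a1, which cleaves the cholesterol side chain. Family 17 had 4.5, family 21 had 12.5 and family 19 had 0. Among bile acid and vitamin D enzymes, Cyp7a1 had 1 count, Cyp8b1 24.5, Cyp27b1 32.5 and Cyp24a1 0. The 8 undetected members of family 4 had 97.5 counts together.

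A few undetected genes, chosen after their values were seen, had most of their counts in the untreated library. Cyp2c29, a liver P450 induced through CAR, had 2 counts in LGG, 0 in E. coli, 0 in PBS and 21 in untreated. Cyp2b10, the classical CAR target, had 6.5 in LGG, 4.5 in E. coli, 0 in PBS and 19.5 in untreated. Cyp4f15 had 2 in LGG, 2 in E. coli, 0.5 in PBS and 9.5 in untreated. These counts share the direction of Cyp3a11 but are below the level at which the size rule was applied.

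Across the detected genes, 8 of 40 (20.0%) had their libraries in the order untreated, LGG, PBS, E. coli from high to low, against 6.35% of all genes tested. They were Cyp2c55, Cyp2c65, Cyp2c66, Cyp2d26, Cyp2e1, Cyp2j6, Cyp3a11 and Cyp4b1. Both shares rank the levels alone, without counting intervals. Only for Cyp2c55, Cyp2c65 and Cyp4b1 was every step between neighbouring libraries of this order outside counting error. The log2 ratio of E. coli to PBS was -0.06 for Cyp2j6 (-0.19 to 0.08), for example. The opposite order held for Cyp2d13 and Cyp27a1 (5.0%), against 7.2% of all genes. Cyp3a11 and Cyp2c66 were detected only through the untreated library, which heads this order. The order was chosen after the values were seen, and the untreated library was the highest for 14 of the 40 genes and the lowest for 15. Hoxb6, Hoxb7 and Hoxb8, which mark the proximal colon, went in this order too. Hoxc6, the remaining proximal marker, was below the detection limit and was lowest in PBS (0.125 CPM, against 0.138 in E. coli). Hoxb6 had 17.0 CPM in the LGG library, 7.95 in E. coli, 11.7 in PBS and 33.1 in untreated. All 4 proximal markers summed to 36.3 CPM in LGG, 18.5 in E. coli, 25.6 in PBS and 67.5 in untreated, with none at 0. The 4 distal markers summed to 39.0 in LGG, 69.0 in E. coli, 47.8 in PBS and 41.2 in untreated, with Hoxd13 at 15.4, 39.1, 24.9 and 21.2 in the same order of libraries.

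Markers of other tissues also differed between the libraries. The 9 small-intestinal enterocyte markers were all detected and summed to 574 CPM in the LGG library, 369 in E. coli, 411 in PBS and 516 in untreated. Fabp2 made up most of each sum, at 464, 274, 322 and 330 CPM in the same order of libraries. The median log2 ratio of the 9 to untreated was -0.84 for LGG, -1.47 for E. coli and -1.225 for PBS. Of the 9, 2 were above untreated in LGG, 1 in E. coli and 1 in PBS. Against untreated, 3 of the 9 were past the rule in LGG (all lower; 1.56% of all genes were), 7 in E. coli (6 lower and 1 higher; 2.96%) and 5 in PBS (all lower; 1.89%). Apoa4 had 5.95 CPM in LGG, 0.310 in E. coli, 1.25 in PBS and 45.8 in untreated, an order shared by Cyp3a11. The 6 adipocyte markers summed to 93.8 CPM in LGG, 38.5 in E. coli, 70.9 in PBS and 99.99 in untreated, and the 5 mesothelium markers to 18.3, 12.4, 29.97 and 35.1 in the same order of libraries. The 8 pancreatic acinar markers were lowest in untreated, at 40.8 in LGG, 72.9 in E. coli, 20.1 in PBS and 2.77 in untreated. So were the 6 B and plasma cell markers in the table, at 53.1 in LGG, 69.7 in E. coli, 72.3 in PBS and 39.2 in untreated. Macrophage markers (77.0 to 82.5), smooth muscle markers (10166 to 12044) and steroidogenic markers (66.1 to 69.1) had narrower ranges. The steroidogenic sum was mostly Nr5a2 (37.6 to 42.3) and Fdx1 (19.8 to 23.0), which are also on the receptor and redox partner lists below. Nr5a1 was at 0 in all libraries, and Hsd3b1 and Cyp11a1 were below the detection limit. The part of colon position and of these other cells in the P450 differences was not tested, and in bulk tissue fewer cells of a type and less RNA per cell cannot be told apart.

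Between the bacteria, 8 detected P450 genes were past the 1.5-fold rule for LGG against E. coli, where 2.41% of all genes were. Higher in LGG were Cyp3a11, Cyp2e1, Cyp2c65 (log2 ratio 0.89), Cyp2c55 (0.80) and Cyp4b1. Lower in LGG were Cyp2c44, Cyp2u1 (-0.71, interval -1.30 to -0.16) and Cyp26b1 (-0.62, interval -1.16 to -0.10).

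Genes that serve or regulate P450 enzymes were set against the same 2-fold rule, which 4.51% of all genes met in at least 1 of the 6 pairs. None of 10 redox partners was past it in any of the 6 pairs. Por, the electron donor of the P450s in the endoplasmic reticulum, had 153 CPM in the LGG library, 147 in E. coli, 145 in PBS and 134 in untreated, and Cyb5b had 410.1, 416, 423 and 375 in the same order of libraries. None of the 17 receptors was past it either. Hnf4a, a nuclear receptor of gut and liver epithelium, had 861 CPM in LGG, 921 in E. coli, 885 in PBS and 809 in untreated, and the vitamin D receptor gene Vdr had 519 in LGG, 549 in E. coli, 510.0 in PBS and 453 in untreated.

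AHR targets outside the P450s gave none of 8 past the rule in any pair. Ugt1a6a, which conjugates glucuronic acid to phenols, had 435 CPM in the LGG library, 337 in E. coli, 353 in PBS and 442 in untreated, and Ugt1a6b had 416 in LGG, 324 in E. coli, 338 in PBS and 418 in untreated. These genes share the other exons of the Ugt1a locus, so their counts are not separate measurements. Of 12 steroid and retinoid partners, 10 were tested and 1 was past the rule. This was Rbp2, which carries retinol inside enterocytes, at 35.2 CPM in LGG, 37.6 in E. coli, 35.0 in PBS and 18.4 in untreated, with a log2 ratio of E. coli to untreated of 1.03 (0.88 to 1.18). Rbp2 is also one of the enterocyte markers, and the one that was higher. Cyp51, the lanosterol demethylase of cholesterol synthesis, which the naming rule leaves out, had 232 CPM in LGG, 219 in E. coli, 234 in PBS and 186 in untreated.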

How the data were processed

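RNA was extracted with TRIzol and columns with DNase, and libraries were made with the TruSeq RNA kit, per the labels' protocols. TopHat2 and HOMER and the build mm9 are named, per the submitters' processing notes, without versions or settings. Whether strand was used, and what was done with reads that match several places, is not stated there. Expected counts per RefSeq gene are what the authors deposited: 17904 of 24016 rows hold values in steps of 0.5, so these estimated counts were rounded to whole numbers first. All 4 columns were matched to samples by name, and 4181 rows were at 0 throughout.

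TMM scaling of CPM was done with edgeR 4.0.16 (R 4.3.3). A prior of 0.5 counts, made proportional to each library's size, was added for log2 ratios, and intervals were exact conditional binomial (Clopper-Pearson) intervals at 95% (scipy 1.17.1). edgeR's count test was not run, since each group has 1 library. The size rule needed a 2-fold difference, an interval leaving out 0 and a mean of at least 0.5 CPM. Alternatives were DESeq2 1.42.0 size factors, upper-quartile factors, library totals, a prior of 5 counts, rounding down, other CPM limits and a 1.5-fold rule. The calculation was tested on simulated counts.

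Values in every library are given for each detected gene past the size rule in any pair, for the 2 highest per length in each family and for all of families other than 2 and 4. Other genes were chosen after their values were seen. The members and gene lists were chosen with earlier results of these data known. Promoters came from RefSeq (GRCm38.p6) and shared 50-base words from GENCODE M21 transcripts, while the count table uses mm9. Coordinates of the 2 builds were kept apart. Jchain and Adgre1 were listed among the markers under the older symbols Igj and Emr1 as well, and the older symbols matched.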

Additional observations from a re-analysis of the deposited data

How the results depend on the processing

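Of the alternative values of the counts reported, 75 stayed within 1.5 times the reported count and 32 did not, and no log2 ratio of a P450 gene past the size rule reversed. With a mean of at least 5 CPM, 25 P450 genes were detected, their median log2 ratio of LGG to E. coli was 0.02, against -0.05 at the reported limit, and 0 (LGG against E. coli), 2 (PBS against untreated), 1 (LGG against untreated) and 4 (E. coli against untreated) were past the rule. Over all genes this limit left 6 for LGG against PBS, 10 for E. coli against PBS, 13 for LGG against E. coli, 51 for LGG against untreated, 152 for E. coli against untreated and 85 for PBS against untreated. A limit of 1 CPM left 33 P450 genes and gave 0 of them for LGG against E. coli and 3 for PBS against untreated. Over all genes it gave 40 for LGG against PBS, 52 for LGG against E. coli, 151 for LGG against untreated and 209 for PBS against untreated. Shares of all genes at the limits of 1 and 5 CPM are not given here. Without a limit, of 94 P450 genes 1 was past the rule for LGG against PBS, 7 for LGG against untreated, 11 for E. coli against untreated and 10 for PBS against untreated. Of all 24016 rows, 106 were for LGG against PBS, 135 for E. coli against PBS and 162 for LGG against E. coli. Against untreated 333 were for LGG, 597 for E. coli and 358 for PBS. With a prior of 5 counts 1 P450 gene was past the rule for LGG against E. coli (Cyp2c44 had -0.89), and over all genes 60 were, and 59 for E. coli against PBS. Cyp2c66 in PBS against untreated was also lost with this prior (-0.92) and when counts were rounded down. At 1.5-fold the P450 counts were 2 for LGG against PBS, 1 for E. coli against PBS, 8 for LGG against E. coli, 9 for LGG against untreated, 14 for E. coli against untreated and 12 for PBS against untreated.

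Library totals moved the median of all genes against untreated by -0.099 (LGG), -0.084 (E. coli) and -0.090 (PBS) on the log2 scale, the median of the detected P450 genes to -0.06, -0.04 and -0.13, and the split of all genes past the rule to 72 higher and 213 lower for LGG (88 and 151 with TMM), 120 and 374 for E. coli (155 and 297) and 89 and 220 for PBS (122 and 167). This scaling took Cyp2d13 out of the rule for LGG against untreated (0.915) and brought in Cyp2c55 for PBS (-1.03), and Cyp2d26 (-1.03) and Cyp2e1 (-1.05) for E. coli, each against untreated. Under the scaling alternatives 19 of 720 P450 ratios changed sign, none above 0.0886 in size. The limits with fewer genes act by testing fewer genes; the cause of the other changes was not tested. With 1 library per group, nothing could be left out. No paired analysis was possible because each group has 1 library.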
